A study of Mus musculus with 24 samples.

Results

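Transcript levels of 9 genes of interferon receptor signalling were followed across cultured dendritic cells: Ifnar1, Ifnar2, Jak2, Stat2, Stat3, Usp18, Socs1, Socs3 and Cish. They were taken by symbol, through the accession that the arrays give for each probe. All 9 passed the filter on dim probes and are 9 of the 20209 genes and other transcripts tested. Together they have 12 probes, and each probe was well above background on all 24 arrays. The cells were BMDCs, bone marrow cells of C57BL/6 background cultured for 9 days with 100 ng/ml human Flt3 ligand, a cytokine that drives dendritic cell development. The genotypes were Irf5-KO, Lyn-KO, DKO (Lyn/Irf5 double knockout) and WT. Irf5 encodes a transcription factor acting below Toll-like receptors, and Lyn encodes a Src-family kinase. Cells of each genotype received 150 nM CpG-B oligonucleotide (ODN 1668, a ligand of the receptor TLR9) for 6 h or were left unstimulated, which gave 8 groups of 3 arrays from biological triplicates. The design asks how the response to CpG-B depends on Irf5, on Lyn and on both.

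Type I interferons bind a receptor made of the chains Ifnar1 and Ifnar2, whose attached Janus kinases phosphorylate STAT proteins. Stat2 and Irf9 then act in a complex that switches on interferon-stimulated genes, while Stat3 and Stat5 mainly carry signals of other cytokines. Many of the induced genes feed back: Usp18 removes the ubiquitin-like protein ISG15 from its targets and also blocks the receptor at Ifnar2, and Socs1, Socs3 and Cish are SOCS-family inhibitors of kinases and receptors.

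Levels are log2 signal minus the array's own 75th percentile, so a level of 0 means a signal equal to that percentile, and levels of different probes are not set against each other. The 75th percentile lay between 302.7 and 567.7 intensity units, and between 41.0% and 53.8% of spots were well above background. Lyn was lower in unstimulated Lyn-KO (log2 difference from WT -1.82) and unstimulated DKO cells (-1.83). With CpG-B it was lower than in WT in Lyn-KO (-2.44), in DKO (-3.31) and also in Irf5-KO (-0.73, adjusted p = 3.97e-06, limma). The probe for Irf5 was not lower on arrays labelled Irf5-KO (log2 difference from WT -0.30 unstimulated, adjusted p = 0.161, and 0.64 with CpG-B). No source used here places that probe inside or outside the deletion, so it does not check the Irf5 labels. All 5 markers of dendritic cells (Flt3, Itgax, Zbtb46, H2-Ab1 and Cd74) were well above background on all 24 arrays. WT unstimulated replicate 1 stood apart from the other WT unstimulated arrays in 5 of the 9 genes, with the highest Usp18, Socs1 and Stat2 and the lowest Ifnar1 and Ifnar2 of all unstimulated arrays. Several results of the 9 genes that rest on it are given with and without it.

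RefSeq promoter sequence (build GRCm38.p6) was at hand for 8 of the 9 genes, all but Usp18. Windows from 250 bases before to 50 bases after the start of transcription were searched on both strands for TTCNNNGAA, the pattern that STAT dimers bind, and for the interferon-stimulated response element core, which is GAAA, any 2 bases and GAAA again. TTCNNNGAA was found in 2726 of 32851 windows of that length (8.3%), and the response element core in 1131 (3.44%). Among the 8 genes, Ifnar1, Ifnar2 and Socs3 held 1 TTCNNNGAA each and Cish 2, Stat2 held 1 response element core and Socs1 2 that overlap, and Jak2 and Stat3 held neither. The 4 inducible genes below show the patterns, with matches in capitals. Cish (chr9:107296409-107296678, plus strand) is shown up to base 20 of the transcript, because both of its matches lie at positions 1 to 9 and 12 to 20. Socs3 (chr11:117969367-117969616, minus strand) has its match at -154 to -146, and Socs1 (chr16:10785537-10785786, minus strand) has its overlapping matches at -83 to -74 and -77 to -68. Stat2 (chr10:128270248-128270497, plus strand) has its match at -222 to -213 on the opposite strand, so that it reads as the reverse complement. The sequences run 5′ to 3′ along the gene.
Cish: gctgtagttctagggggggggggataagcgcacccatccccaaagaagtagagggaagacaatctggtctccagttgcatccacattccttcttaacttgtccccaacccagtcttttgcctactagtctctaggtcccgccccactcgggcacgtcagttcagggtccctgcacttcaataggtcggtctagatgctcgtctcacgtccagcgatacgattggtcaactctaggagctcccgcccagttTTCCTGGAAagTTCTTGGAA
Socs3: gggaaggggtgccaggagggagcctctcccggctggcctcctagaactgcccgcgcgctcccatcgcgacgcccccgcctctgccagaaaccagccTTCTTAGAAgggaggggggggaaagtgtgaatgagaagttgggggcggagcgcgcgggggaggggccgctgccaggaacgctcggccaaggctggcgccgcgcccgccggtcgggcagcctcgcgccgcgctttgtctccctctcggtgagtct
Socs1: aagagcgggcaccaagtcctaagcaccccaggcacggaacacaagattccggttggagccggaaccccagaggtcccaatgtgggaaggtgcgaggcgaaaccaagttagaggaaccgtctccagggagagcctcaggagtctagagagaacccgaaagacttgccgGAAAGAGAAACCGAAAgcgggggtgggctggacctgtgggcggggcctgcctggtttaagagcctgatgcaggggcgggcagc
Stat2: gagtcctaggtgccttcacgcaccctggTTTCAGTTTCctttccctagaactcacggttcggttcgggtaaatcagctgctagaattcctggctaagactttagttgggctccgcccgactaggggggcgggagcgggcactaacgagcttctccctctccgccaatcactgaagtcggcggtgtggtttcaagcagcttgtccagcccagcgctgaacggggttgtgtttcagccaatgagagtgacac
A match is a description of the letters and says nothing of binding in these cells.

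With each gene read from its brightest probe, CpG-B raised 7 of the 9 transcripts and lowered the other 2 in every genotype. Jak2, Stat2, Stat3, Usp18, Socs1, Socs3 and Cish rose, and both receptor chains, Ifnar1 and Ifnar2, fell. A second Ifnar1 probe gave 0.10 in Irf5-KO (adjusted p = 0.202) and 0.13 in DKO (adjusted p = 0.103), the other direction and not called. Usp18 showed the largest rise of the 9 in each genotype, by 6.85 in Irf5-KO, 7.51 in Lyn-KO, 7.60 in DKO and 6.29 in WT (log2). The WT value corresponds to 78.2-fold, and without WT unstimulated replicate 1 the WT rise was 6.74. Thus 9 of 9 genes were called in each genotype (limma, adjusted p under 0.05 over all 20209 features). Beside the 7 that rose stand 31.6% of all features in Irf5-KO, 32.8% in Lyn-KO, 34.6% in DKO and 31.2% in WT. Beside the 2 that fell stand 35.2% of all features in Irf5-KO, 36.1% in Lyn-KO, 35.9% in DKO and 37.2% in WT. The median change of the 9 was 3.38 in Irf5-KO, 3.11 in Lyn-KO, 3.25 in DKO and 2.91 in WT. The medians of all features were -0.02, -0.01, 0.02 and -0.03 in the same genotypes. For none of the 9 genes did CpG-B and unstimulated arrays of a genotype overlap, and for all 9 the 4 CpG-B means lay on one side of all 4 unstimulated means. How many of all features separate in these ways was not counted, so neither count sets the 9 apart. Cells in culture were measured in bulk, so fewer cells of a type and less RNA per cell cannot be told apart in any of these values.

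**Figure D1:**
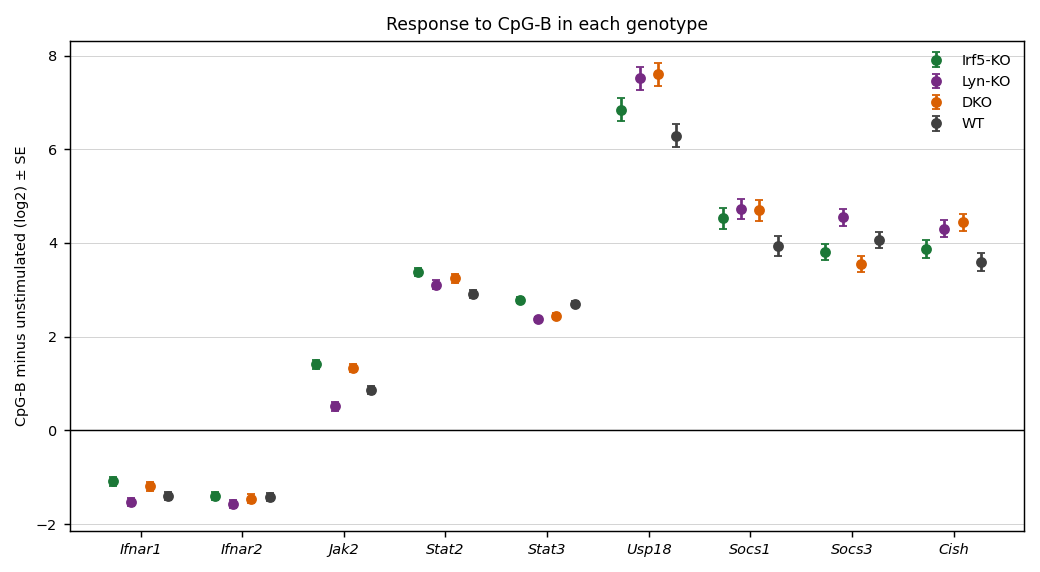
Change with CpG-B (CpG-B minus unstimulated, log2, with its standard error, n = 3 arrays per group) for each gene, by genotype in colour. Ifnar1 and Ifnar2 lie below 0 and the other 7 above it in all genotypes, and Usp18 lies highest, between 6.29 and 7.60.

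With CpG-B, 2 of the 9 genes were higher in Irf5-KO than in WT (Ifnar1 and Jak2) and none lower, where 14.4% of all features were higher and 11.1% lower. In Lyn-KO, none was higher and 2 were lower than in WT (Jak2 and Stat3), where 13.9% of all features were higher and 11.2% lower. In DKO, 3 were higher than in WT (Ifnar1, Jak2 and Cish) and 2 lower (Stat3 and Socs3), where 24.9% of all features were higher and 19.9% lower. DKO against Irf5-KO gave no higher gene and 2 lower (Stat3 and Socs3), with 18.1% and 14.9% of all features. DKO against Lyn-KO gave 3 higher (Ifnar1, Jak2 and Cish) and 1 lower (Socs3), with 16.8% and 14.7% of all features. The median difference from WT of the 9 genes was 0.10 (Irf5-KO), -0.02 (Lyn-KO) and 0.13 (DKO), where the medians of all features were 0.02, 0.05 and 0.06. The comparisons with WT share the 3 WT arrays and are not independent of each other.

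The response itself, CpG-B minus unstimulated, was also set against that of WT. In Irf5-KO it was more positive for 2 of the 9 genes (Jak2 and Stat2) and more negative for none, beside 7.48% and 5.16% of all features. In Lyn-KO it was more positive for 1 (Usp18) and more negative for 1 (Stat3), beside 6.05% and 5.02%. In DKO it was more positive for 3 (Jak2, Usp18 and Cish) and more negative for 1 (Stat3), beside 17.3% and 13.2%.

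Markers of several cell types moved with genotype once CpG-B was given. Their signal was summed over a list, in units of the array's 75th percentile. Of 7 markers of plasmacytoid dendritic cells, the main interferon producers among dendritic cells, 5 were higher in Lyn-KO than in WT, 5 were higher and 1 lower in DKO, and 3 were lower in Irf5-KO. The sum was 643.6 to 690.7 in Irf5-KO, 960.1 to 1079 in Lyn-KO, 939.5 to 1033 in DKO and 679.9 to 728.6 in WT. Siglech, Ly6d and Bst2 were the brightest of the 7 and make up most of it. In every genotype it was higher with CpG-B than without (399.7 to 493.3 in unstimulated WT). For 5 measured markers of type 1 conventional dendritic cells the sum was 65.8 to 76.4 in Irf5-KO, 216 to 231 in Lyn-KO, 146 to 148 in DKO and 138 to 174 in WT, with 2 higher and 2 lower in Irf5-KO. Irf8 had a mean level of 7.10 over all arrays and the next brightest, Clec9a, 3.73. This sum thus mostly follows Irf8 and is not a reading of the 5 markers alike. For 4 of type 2 it was 16.8 to 17.9 in Irf5-KO, 11.4 to 12.4 in Lyn-KO, 14.4 to 14.9 in DKO and 16.0 to 16.1 in WT. Of 3 measured macrophage markers, 2 were higher in Irf5-KO and in DKO (25.9 to 30.05 in Irf5-KO, 16.3 to 18.4 in Lyn-KO, 24.0 to 35.3 in DKO and 16.0 to 17.1 in WT). Of 5 B cell markers, 2 were higher in Irf5-KO, 3 lower in Lyn-KO and 4 lower in DKO (39.2 to 48.0 in Irf5-KO, 15.1 to 16.2 in Lyn-KO, 10.5 to 12.4 in DKO and 32.1 to 34.5 in WT). Of 7 markers of neutrophils and their precursors, 5 were lower and 1 higher in DKO, 1 lower and 1 higher in Lyn-KO and 1 lower in Irf5-KO (48.4 to 67.1 in Irf5-KO, 39.9 to 45.2 in Lyn-KO, 22.2 to 52.2 in DKO and 60.7 to 67.2 in WT). Of the 5 general dendritic cell markers, 2 were lower in Irf5-KO, 3 higher and 1 lower in Lyn-KO, and 2 higher in DKO. Klrb1c and Ms4a2, markers of NK cells and of basophils or mast cells, were well above background on 0 arrays and Ncr1 on 1, and the other 2 markers of T and NK cells summed to at most 2.03, and those of basophils and mast cells to at most 2.83, on any array. The part of these cells in the differences between genotypes with CpG-B was not tested.

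In unstimulated cells, 3 of the 9 genes were lower in Lyn-KO than in WT (Usp18, Socs1 and Cish) and none higher, where 2.75% of all features were lower and 1.83% higher. In DKO, 1 was lower than in WT (Usp18) and none higher, where 3.62% were lower and 3.16% higher. None was called in unstimulated Irf5-KO against WT (0.737% of all features called), although 3 had an unadjusted p under 0.05. None was called in DKO against Irf5-KO (5.35% of all features called) or in DKO against Lyn-KO (0.163%), with 1 gene at an unadjusted p under 0.05 in each. The share of all features at an unadjusted p under 0.05 was not counted, so these unadjusted counts have no background beside them. The median difference from WT of the 9 genes was -0.23 in Lyn-KO and -0.21 in DKO (log2), where the median of all features was 0.01 in Lyn-KO. B cell markers moved with these comparisons. All 5 of 5 (Cd79a, Cd79b, Ms4a1, Pax5 and Pou2af1) were lower in unstimulated Lyn-KO and in unstimulated DKO than in WT. Their summed signal was 7.80 to 7.98 in Lyn-KO and 6.84 to 9.36 in DKO, against 44.2 to 61.8 in WT. Markers of neutrophils and their precursors also moved in unstimulated DKO, where 4 of 7 were lower than in WT (summed signal 40.8 to 84.3 in DKO and 96.0 to 119.6 in WT). For type 1 conventional dendritic cells the unstimulated sum, which mostly follows Irf8, was 219.9 to 241.6 in Lyn-KO and 230.1 to 244.7 in DKO, against 194.7 to 208.7 in WT. For macrophages it was 68.5 to 69.7 in Lyn-KO and 68.2 to 76.2 in DKO, against 79.8 to 83.5 in WT. For plasmacytoid dendritic cells it was 514.0 to 528.2 in Lyn-KO, against 399.7 to 493.3 in WT, and DKO overlapped WT. The part of all these cells in the results was not tested.

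**Figure D2:**
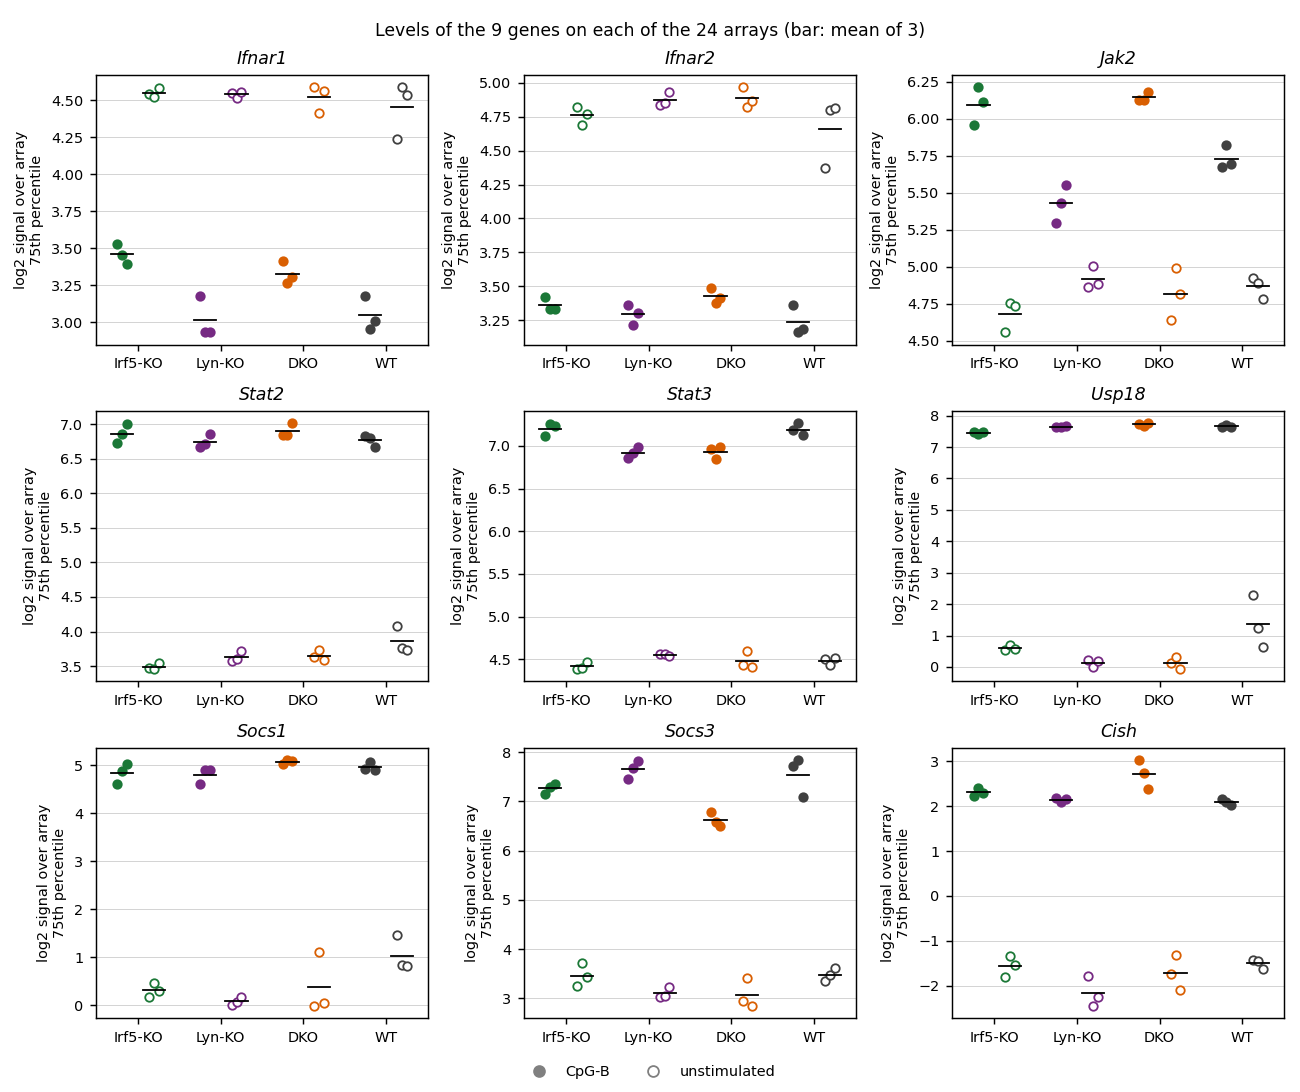
Level of each gene on every array (log2 signal over the array's 75th percentile), by genotype, with filled points for CpG-B and open points for unstimulated cells and a bar for the mean of 3 arrays. Filled and open points separate in every panel, and WT unstimulated replicate 1 lies apart from its group in Usp18 (2.28), Ifnar1 (4.24) and Ifnar2 (4.37).

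Ifnar1, a receptor chain that every type I interferon needs, stood higher with CpG-B in both genotypes without Irf5. On its brightest probe it stood at 3.53, 3.45 and 3.40 on the Irf5-KO arrays with CpG-B, 3.18, 2.93 and 2.94 on the Lyn-KO arrays, 3.41, 3.26 and 3.31 on the DKO arrays and 3.18, 2.95 and 3.01 on the WT arrays. In unstimulated cells it stood between 4.24 and 4.59 on all 12 arrays. The change with CpG-B was -1.09 in Irf5-KO, -1.53 in Lyn-KO, -1.20 in DKO and -1.40 in WT (log2, SE 0.087), and the difference of these changes from WT was 0.31 in Irf5-KO (adjusted p = 0.114) and 0.21 in DKO (adjusted p = 0.229). Without WT unstimulated replicate 1 both passed, at 0.42 in Irf5-KO (adjusted p = 0.016) and 0.32 in DKO (adjusted p = 0.0393). With CpG-B the Irf5-KO and DKO arrays all lay above the WT and Lyn-KO arrays. The difference from WT was 0.41 in Irf5-KO (adjusted p = 0.00161) and 0.28 in DKO (adjusted p = 0.0136), and on single slides it was 0.35 to 0.50 in Irf5-KO and 0.23 to 0.31 in DKO. Lyn-KO differed from WT by -0.03 (adjusted p = 0.819). DKO exceeded Lyn-KO by 0.31 (adjusted p = 0.00941). After background correction by normexp together with quantile normalization the calls were lost, at 0.32 in Irf5-KO against WT (adjusted p = 0.0999), 0.09 in DKO against WT (adjusted p = 0.632) and 0.21 in DKO against Lyn-KO (adjusted p = 0.282). The last was also lost in a fit of those groups alone (adjusted p = 0.0553). The DKO call against WT was also lost without DKO CpG-B replicate 1 (0.24, adjusted p = 0.0623) and without WT CpG-B replicate 2 (0.23, adjusted p = 0.0652).

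The 3 Ifnar1 probes disagreed on the size of the fall. The second probe gave 0.10 in Irf5-KO (adjusted p = 0.202), -0.25 in Lyn-KO (adjusted p = 0.00273), 0.13 in DKO (adjusted p = 0.103) and -0.24 in WT (adjusted p = 0.00413). The third gave -0.27 in Irf5-KO (adjusted p = 0.0926), -0.70 in Lyn-KO, -0.39 in DKO (adjusted p = 0.0179) and -0.70 in WT. The fall of Ifnar1 in Irf5-KO and DKO thus rests on which probe is read, whereas Lyn-KO and WT fell on all 3 probes. The genotype difference with CpG-B was alike on the 3 probes in Irf5-KO against WT (0.41, 0.39 and 0.42, each called) and positive on all 3 in DKO against WT (0.28, 0.47 and 0.29, the last with adjusted p = 0.107). The second probe also gave a called difference of the response from WT, 0.34 in Irf5-KO (adjusted p = 0.0246) and 0.37 in DKO (adjusted p = 0.00676).

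Ifnar2, the chain that docks STAT proteins and Usp18, fell by nearly the same amount everywhere. With CpG-B it stood at 3.42, 3.33 and 3.33 on the Irf5-KO arrays, 3.36, 3.22 and 3.31 on the Lyn-KO arrays, 3.49, 3.38 and 3.42 on the DKO arrays and 3.36, 3.16 and 3.19 on the WT arrays. Unstimulated levels ran between 4.37 and 4.97 over the 12 arrays. The change was -1.40 in Irf5-KO, -1.58 in Lyn-KO, -1.46 in DKO and -1.42 in WT (SE 0.091). No genotype comparison was called for Ifnar2, although DKO against WT with CpG-B reached 0.25 (adjusted p = 0.0494) without WT CpG-B replicate 1. The WT change without WT unstimulated replicate 1 was -1.57, against -1.51 for Ifnar1 under the same omission.

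Jak2, a kinase attached to several cytokine receptors, differed between genotypes in its level with CpG-B. It stood at 5.96, 6.21 and 6.11 on the Irf5-KO arrays, 5.30, 5.43 and 5.55 on the Lyn-KO arrays, 6.12, 6.13 and 6.18 on the DKO arrays and 5.67, 5.82 and 5.69 on the WT arrays. Every Irf5-KO and DKO array lay above every WT array, and every WT array above every Lyn-KO array. Unstimulated levels of all genotypes lay between 4.56 and 5.0, with the Irf5-KO arrays (4.56, 4.76 and 4.74) below the WT arrays (4.93, 4.89 and 4.79) without a call, and Lyn-KO and DKO overlapping WT. The rise with CpG-B was 1.41 in Irf5-KO, 0.51 in Lyn-KO, 1.33 in DKO and 0.86 in WT (SE 0.089). Against WT with CpG-B, Jak2 was higher by 0.36 in Irf5-KO (adjusted p = 0.00515; 0.28 to 0.42 on single slides) and by 0.41 in DKO (adjusted p = 0.000837; 0.30 to 0.49). It was lower in Lyn-KO (-0.30, adjusted p = 0.0179; -0.39 to -0.14). DKO exceeded Lyn-KO by 0.72 (adjusted p = 4.6e-06; 0.63 to 0.83). The rise itself was larger than in WT by 0.55 in Irf5-KO (adjusted p = 0.00616) and by 0.47 in DKO (adjusted p = 0.00846). The Lyn-KO value was -0.35 and not called (adjusted p = 0.0884), but it passed with the slide as a block (adjusted p = 0.0276), after quantile normalization (-0.39, adjusted p = 0.0409) and after normexp with quantile normalization (-0.53, adjusted p = 0.0132).

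Scaling and background correction moved Jak2. With quantile normalization alone the rise in Lyn-KO was 0.24 (adjusted p = 0.0149), and after normexp with quantile normalization it was 0.12 and no longer called (adjusted p = 0.291). In the combined setting the excess of DKO over WT with CpG-B became 0.22 (adjusted p = 0.0654), its larger rise 0.17 (adjusted p = 0.375), and its rise alone 0.82. The Lyn-KO deficit against WT was lost without Lyn-KO CpG-B replicate 1 (-0.24, adjusted p = 0.088), without WT CpG-B replicate 2 (-0.25, adjusted p = 0.0781), with no filter on dim probes (adjusted p = 0.0505) and in a fit of those groups alone (adjusted p = 0.0651).

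Stat2, which acts with Irf9 in the interferon-activated complex, rose to a common level. With CpG-B it stood at 6.73, 6.86 and 7.00 on the Irf5-KO arrays, 6.66, 6.71 and 6.87 on the Lyn-KO arrays, 6.84, 6.85 and 7.01 on the DKO arrays and 6.83, 6.80 and 6.67 on the WT arrays, with Irf5-KO and Lyn-KO overlapping WT and the lowest DKO array just above the highest WT array, without a call. Unstimulated, it stood at 3.47, 3.46 and 3.54 on the Irf5-KO arrays, 3.58, 3.61 and 3.72 on the Lyn-KO arrays, 3.64, 3.73 and 3.59 on the DKO arrays and 4.08, 3.77 and 3.73 on the WT arrays. The unstimulated WT arrays lay above all Irf5-KO and Lyn-KO arrays, and DKO overlapped WT. The rise was 3.38 in Irf5-KO, 3.11 in Lyn-KO, 3.25 in DKO and 2.91 in WT (SE 0.090). The rise in Irf5-KO exceeded that in WT by 0.47 (adjusted p = 0.0192), with unstimulated Irf5-KO at -0.37 relative to WT (adjusted p = 0.0712). That unstimulated difference passed without WT replicate 3 (-0.44, adjusted p = 0.0425) and with a trended robust prior (adjusted p = 0.0416). It shrank to -0.26, not called, without WT replicate 1. Without WT unstimulated replicate 1 the excess was 0.36 (adjusted p = 0.0489). It was lost without Irf5-KO CpG-B replicate 3 (0.40, adjusted p = 0.056), after normexp with quantile normalization (0.39, adjusted p = 0.0763), with no filter (adjusted p = 0.0591) and in a fit of those groups alone (adjusted p = 0.07). The excess in DKO was 0.34 (adjusted p = 0.0519). It passed under 5 alternatives, 3 of them with replicate 2 or 3 of WT or replicate 2 of DKO left out from the unstimulated arrays (0.38 to 0.41, adjusted p = 0.027 to 0.0466).

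Stat3, which carries signals of the IL-6 and IL-10 families, reached a lower level with CpG-B in both genotypes that lack Lyn. It stood at 6.86, 6.91 and 6.98 on the Lyn-KO arrays and 6.96, 6.84 and 6.99 on the DKO arrays, against 7.18, 7.26 and 7.13 on the WT arrays. The Irf5-KO arrays, at 7.11, 7.25 and 7.23, overlapped WT. Unstimulated levels lay between 4.39 and 4.60 on all 12 arrays. The rise was 2.78 in Irf5-KO, 2.37 in Lyn-KO, 2.45 in DKO and 2.71 in WT (SE 0.059). Against WT the CpG-B level differed by -0.27 in Lyn-KO (adjusted p = 0.00202; -0.35 to -0.14 on single slides), by -0.26 in DKO (adjusted p = 0.00137; -0.42 to -0.14) and by 0.01 in Irf5-KO. DKO against Irf5-KO gave -0.27 (adjusted p = 0.00149), and DKO against Lyn-KO gave 0.01 and no call. These differences were larger after other scalings: -0.42 in Lyn-KO after normexp with quantile normalization, and in DKO against WT -0.46 after quantile normalization and -0.49 after normexp with quantile normalization. DKO against Irf5-KO gave -0.41 and -0.45 in the same settings. The second Stat3 probe gave -0.31 in Lyn-KO (adjusted p = 0.142) and -0.30 in DKO (adjusted p = 0.11) against WT, of the same size but with a larger error.

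The rise of Stat3 was smaller than in WT by -0.34 in Lyn-KO (adjusted p = 0.0123) and by -0.26 in DKO (adjusted p = 0.024). The Lyn-KO value was lost with no filter on dim probes (adjusted p = 0.0548). The DKO value was lost with no filter (adjusted p = 0.0832), in a fit of those groups alone (adjusted p = 0.0774), and without any one of 4 arrays, replicate 2 of WT and of DKO in either condition (-0.20 to -0.23, adjusted p = 0.055 to 0.0726). It was -0.47 and -0.50 after quantile normalization without and with normexp.

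**Figure D3:**
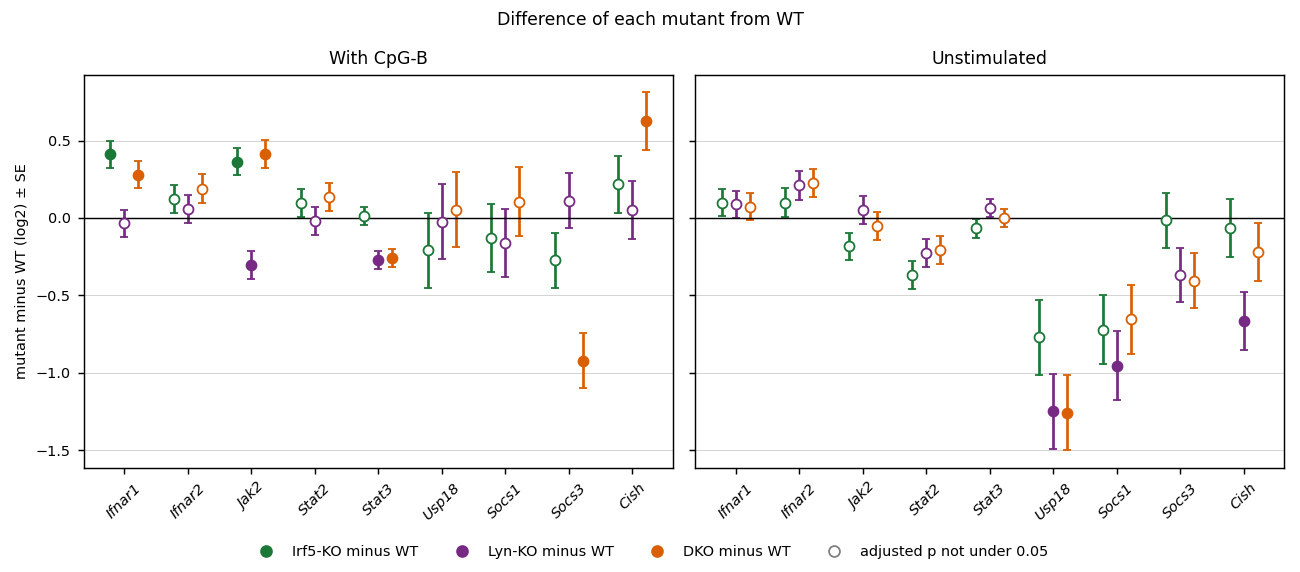
Difference of each mutant from WT (log2, with its standard error), with CpG-B at left and unstimulated at right. Filled points had an adjusted p under 0.05. With CpG-B the filled points are Ifnar1, Jak2, Stat3, Socs3 and Cish, and in unstimulated cells Usp18, Socs1 and Cish.

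Usp18, the ISG15 protease that also blocks Ifnar2, was lower before stimulation in both genotypes that lack Lyn and ended within a narrow range. With CpG-B it stood at 7.49, 7.40 and 7.47 on the Irf5-KO arrays, 7.63, 7.64 and 7.66 on the Lyn-KO arrays, 7.73, 7.68 and 7.75 on the DKO arrays and 7.64, 7.72 and 7.64 on the WT arrays. All 12 arrays lay between 7.40 and 7.75, with the Irf5-KO arrays below the others, and no genotype was called against WT. In a fit of those groups alone DKO exceeded Irf5-KO by 0.26 (adjusted p = 0.027). Unstimulated, it stood at 0.53, 0.71 and 0.58 on the Irf5-KO arrays, 0.23, -0.02 and 0.18 on the Lyn-KO arrays, 0.12, 0.31 and -0.07 on the DKO arrays and 2.28, 1.23 and 0.62 on the WT arrays. No Lyn-KO or DKO array reached the lowest WT array, while Irf5-KO replicate 2 did. The unstimulated difference from WT was -1.25 in Lyn-KO (adjusted p = 0.00378), -1.26 in DKO (adjusted p = 0.00294) and -0.77 in Irf5-KO (adjusted p = 0.189). WT replicate 1 set part of the size: without it the differences were -0.79 in Lyn-KO (adjusted p = 0.00113) and -0.80 in DKO (adjusted p = 0.00093). In a fit of those groups alone, where the spread of the WT arrays is not pooled with other groups, neither was called (adjusted p = 0.268 and 0.206). Without WT replicate 3 the Irf5-KO value was -1.15 and called (adjusted p = 0.00528), and without replicate 1 it was -0.32 (adjusted p = 0.57).

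Starting lower and ending at the same level, Usp18 rose more than in WT by 1.22 in Lyn-KO (adjusted p = 0.0264) and by 1.31 in DKO (adjusted p = 0.00646). The excess on single slides was 0.46 to 2.05 in Lyn-KO and 0.80 to 2.25 in DKO, positive on all 3. Without WT unstimulated replicate 1 the excess was 0.77 in Lyn-KO (adjusted p = 0.0082) and 0.86 in DKO (adjusted p = 0.00114). The Lyn-KO call was lost without Lyn-KO unstimulated replicate 2 (1.15, adjusted p = 0.0621), without WT CpG-B replicate 3 (1.21, adjusted p = 0.0531), without Lyn-KO CpG-B replicate 3 (adjusted p = 0.0525) and with no filter (adjusted p = 0.0651). In a fit of the groups compared alone neither was called (adjusted p = 0.14 in Lyn-KO and 0.0568 in DKO). In Irf5-KO the excess passed without WT unstimulated replicate 3 (0.94, adjusted p = 0.0211). Isg15, the gene for the protein that Usp18 removes, had the same order among unstimulated arrays of WT, with 4.81, 4.23 and 3.82.

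The narrow Usp18 range with CpG-B stood beside unequal levels of Ifnb1, the gene for interferon beta and a ligand of Ifnar1 and Ifnar2. Ifnb1 stood at 0.30, -0.21 and 0.15 on the Irf5-KO arrays with CpG-B, 4.99, 5.05 and 5.07 on the Lyn-KO arrays, 2.93, 2.77 and 2.74 on the DKO arrays and 2.47, 2.51 and 1.97 on the WT arrays. It was lower in Irf5-KO than in WT (-2.24, adjusted p = 1.92e-06) and higher in Lyn-KO (2.72, adjusted p = 2.09e-07), and DKO did not pass (0.49, adjusted p = 0.12). Over the same arrays the Usp18 differences from WT were -0.21 (Irf5-KO), -0.02 (Lyn-KO) and 0.05 (DKO). All Irf5-KO arrays lay below all WT arrays. The SE of these differences, 0.24, pools the spread of all 8 groups. The SD of Usp18 was 0.84 in unstimulated WT but 0.015 to 0.049 in the CpG-B groups. The lack of a call with CpG-B thus depends in part on the spread of unstimulated arrays. Protein was not measured.

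**Figure D4:**
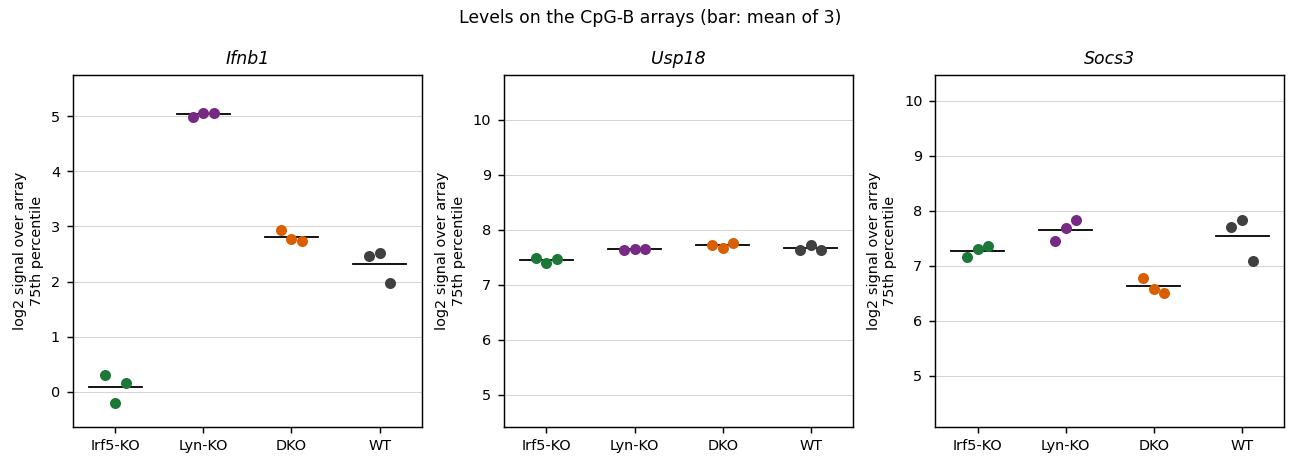
Levels of Ifnb1, Usp18 and Socs3 on the 12 CpG-B arrays by genotype (log2 signal over the array's 75th percentile, bar for the mean of 3), each on an axis of the same length. Ifnb1 spans -0.21 to 5.07, Usp18 stays between 7.40 and 7.75, and Socs3 is lowest in DKO.

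Socs1, an inhibitor of the kinases below interferon receptors, was also lower than in WT in unstimulated Lyn-KO cells. It stood at 0.18, 0.47 and 0.29 on the unstimulated Irf5-KO arrays, 0.01, 0.06 and 0.17 on the Lyn-KO arrays, -0.01, 1.11 and 0.04 on the DKO arrays and 1.46, 0.83 and 0.81 on the WT arrays. All mutant arrays lay below the WT arrays except DKO replicate 2. Lyn-KO was lower than WT (-0.95, adjusted p = 0.0155; -1.45 to -0.64 on single slides). That call was lost without WT replicate 1 (-0.74, adjusted p = 0.0957) and in a fit of those groups alone (adjusted p = 0.0913). DKO stood at -0.66 relative to WT (adjusted p = 0.091), and without DKO replicate 2 at -1.02 and called (adjusted p = 0.00071). Irf5-KO stood at -0.72 (adjusted p = 0.174). With CpG-B, Socs1 lay between 4.62 and 5.11 on all 12 arrays with no genotype called, after rises of 4.53 in Irf5-KO, 4.73 in Lyn-KO, 4.70 in DKO and 3.94 in WT (SE 0.22). The WT rise was 4.15 without WT unstimulated replicate 1. Without DKO unstimulated replicate 2 the rise in DKO exceeded that in WT by 1.13 (adjusted p = 0.000672).

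Socs3, the inhibitor of signalling through the IL-6 receptor chain Il6st, was lowest with CpG-B in DKO cells. It stood at 7.16, 7.30 and 7.35 on the Irf5-KO arrays, 7.46, 7.68 and 7.83 on the Lyn-KO arrays, 6.78, 6.58 and 6.50 on the DKO arrays and 7.71, 7.84 and 7.08 on the WT arrays. Every DKO array lay below every other CpG-B array, while Irf5-KO and Lyn-KO overlapped WT. The difference of DKO was -0.92 from WT (adjusted p = 0.000273; -1.25 to -0.58 on single slides), -0.65 from Irf5-KO (adjusted p = 0.00772) and -1.03 from Lyn-KO (adjusted p = 0.000147). Irf5-KO stood at -0.50 relative to WT once WT replicate 3 was left out (adjusted p = 0.0276), and was not called with it. Unstimulated levels ran between 2.85 and 3.71. Relative to WT they differed by -0.37 in Lyn-KO, whose arrays all lay below WT, and by -0.41 in DKO, which overlapped WT. Neither was called (adjusted p = 0.309 and 0.208). The rise was 3.81 in Irf5-KO, 4.55 in Lyn-KO, 3.55 in DKO and 4.07 in WT (SE 0.18). The rise in DKO differed from that in WT by -0.52 (adjusted p = 0.132). It passed after quantile normalization (-0.75, adjusted p = 0.039) and without WT CpG-B replicate 3 (-0.75, adjusted p = 0.0137).

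Whether the loss of Lyn acted differently on these genes in cells without Irf5 was tested with CpG-B as a difference of differences (DKO minus Irf5-KO, less Lyn-KO minus WT). None of the 9 passed in limma, where 3.61% of all features did, and 2 (Socs3 and Jak2) had an unadjusted p under 0.05. The share of all features at that unadjusted threshold was not counted. Socs3 had the largest value (-0.76, adjusted p = 0.109), followed by Socs1 (0.40), Cish (0.36) and Jak2 (0.35).

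Cish, a SOCS-family gene induced through Stat5, was highest with CpG-B in DKO. It stood at 2.23, 2.40 and 2.29 on the Irf5-KO arrays, 2.19, 2.09 and 2.15 on the Lyn-KO arrays, 3.03, 2.74 and 2.38 on the DKO arrays and 2.16, 2.09 and 2.03 on the WT arrays. All DKO arrays lay above the WT and Lyn-KO arrays and overlapped Irf5-KO. The difference of DKO was 0.62 from WT (adjusted p = 0.0102; 0.35 to 0.87 on single slides) and 0.57 from Lyn-KO (adjusted p = 0.0242; 0.23 to 0.84). Without DKO replicate 1 these were 0.47 (adjusted p = 0.0671) and 0.42 (adjusted p = 0.138). The call against Lyn-KO was also lost without Lyn-KO replicate 2 (0.55, adjusted p = 0.0685) or replicate 3 (0.58, adjusted p = 0.0522) and without DKO replicate 2 (0.56, adjusted p = 0.0602), with no filter (adjusted p = 0.0547) and in a fit of those groups alone (adjusted p = 0.0512). DKO against Irf5-KO passed only without DKO replicate 3 (0.57, adjusted p = 0.0333).

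Unstimulated Cish stood at -1.80, -1.35 and -1.55 on the Irf5-KO arrays, -1.78, -2.45 and -2.26 on the Lyn-KO arrays, -1.74, -1.32 and -2.11 on the DKO arrays and -1.43, -1.45 and -1.62 on the WT arrays. Lyn-KO was lower than WT by a value near the threshold (-0.66, adjusted p = 0.0491), and 11 of its alternatives ended the call, among them 5 that left out 1 array (-0.72 to -0.52, adjusted p = 0.0735 to 0.198). The rise was 3.87 in Irf5-KO, 4.31 in Lyn-KO, 4.44 in DKO and 3.59 in WT (SE 0.19). The rise in DKO exceeded that in WT by 0.85 (adjusted p = 0.0199), which was lost without DKO CpG-B replicate 1 (0.69, adjusted p = 0.0608) and without DKO unstimulated replicate 3 (0.65, adjusted p = 0.0632). In Lyn-KO the excess was 0.71 (adjusted p = 0.0974), and 0.91 without Lyn-KO unstimulated replicate 1 (adjusted p = 0.0265).

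Of 38 other genes of the pathway, 36 were measured; Ifnl2 had no named probe and Pias3 did not pass the filter. With CpG-B, 23 rose and 7 fell in Irf5-KO, 27 and 7 in Lyn-KO, 25 and 8 in DKO, and 24 and 7 in WT, where 31.2% to 34.6% of all features rose and 35.2% to 37.2% fell. The list's median change was 1.17, 1.07, 1.10 and 1.17 in the same genotypes. All 5 ligand genes measured and all 4 genes of ISG15 conjugation rose in every genotype. Isg15 rose by 6.15 in Irf5-KO, 6.82 in Lyn-KO, 6.81 in DKO and 5.78 in WT. The 7 other receptor chains went both ways: 2 rose and 4 fell in Irf5-KO, 4 and 3 in Lyn-KO, 3 and 4 in DKO, and 2 and 3 in WT. Ifngr2, a chain of the interferon gamma receptor, rose by 1.10 in Irf5-KO, 1.00 in Lyn-KO, 1.07 in DKO and 1.26 in WT. Its partner Ifngr1 changed by -3.59 in Irf5-KO, -4.10 in Lyn-KO, -3.62 in DKO and -3.97 in WT. Il6ra, the IL-6 receptor, changed by -3.24 in Irf5-KO, -4.99 in Lyn-KO, -4.00 in DKO and -4.37 in WT.

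Ifnlr1, the interferon lambda receptor chain, did not follow one direction. Before stimulation it had a mean of -1.17 in Irf5-KO, 0.17 in Lyn-KO, -0.97 in DKO and 0.00 in WT. No unstimulated Irf5-KO or DKO array reached the lowest WT array, so part of the genotype difference preceded CpG-B. With CpG-B it stood at 1.95, 2.16 and 2.47 on the Lyn-KO arrays and 0.24, 0.49 and 0.04 on the WT arrays (difference 1.93, adjusted p = 1.3e-06). It was not well above background on any Irf5-KO array with CpG-B, which makes it at least 15-fold lower than in WT, and it was above background on 1 of 3 DKO arrays. The bound sets the WT mean against a floor for each dim array, the higher of the probe's signal there and the dimmest signal that array counts as well above background. Among kinases, Jak1 was lower with CpG-B in Lyn-KO (-0.64) and DKO (-0.47) than in WT, and Tyk2 was higher in Irf5-KO (0.59) and DKO (0.95).

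Among the other transcription factors, Stat4 was higher with CpG-B than in WT in all mutants, by 0.90 (Irf5-KO), 0.63 (Lyn-KO) and 1.74 (DKO). Irf9, which acts with Stat2, was not called against WT with CpG-B in any mutant, but in unstimulated cells it was lower in Lyn-KO (-0.48, adjusted p = 0.0151) and DKO (-0.40, adjusted p = 0.0362), with Irf5-KO at -0.42 (adjusted p = 0.0985). Unstimulated Irf9 stood at 4.05, 3.72 and 3.49 on the WT arrays, highest on replicate 1. The Lyn-KO arrays lay below these, while DKO replicate 2 (3.58) overlapped WT. No Irf9 value without WT replicate 1 is given here. Ptpn1, a phosphatase that acts on Jak2 and Tyk2, was lower than in WT in all mutants with CpG-B. Its unstimulated mean was 1.98 in Irf5-KO, 1.92 in Lyn-KO, 1.97 in DKO and 1.78 in WT. It stood at 3.11, 3.24 and 3.15 on the Irf5-KO arrays with CpG-B, 2.64, 2.59 and 2.32 on the Lyn-KO arrays, 1.68, 1.53 and 1.22 on the DKO arrays and 3.81, 3.81 and 3.76 on the WT arrays. No mutant array overlapped WT, and the differences were -0.63 (Irf5-KO), -1.28 (Lyn-KO) and -2.32 (DKO). CpG-B raised Ptpn1 by 2.01 in WT but lowered it in DKO (-0.49, adjusted p = 0.000643). Over the 36 genes, 6 were higher and 11 lower in Irf5-KO than in WT with CpG-B, 9 and 8 in Lyn-KO, and 11 and 9 in DKO. The shares of all features were 14.4% higher and 11.1% lower in Irf5-KO, 13.9% and 11.2% in Lyn-KO, and 24.9% and 19.9% in DKO. In unstimulated cells, 1 was higher and 1 lower in Irf5-KO, 1 and 4 in Lyn-KO, and 0 and 6 in DKO, beside 0.737% of all features in either direction in Irf5-KO, 1.83% and 2.75% in Lyn-KO and 3.16% and 3.62% in DKO.

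**Figure D5:**
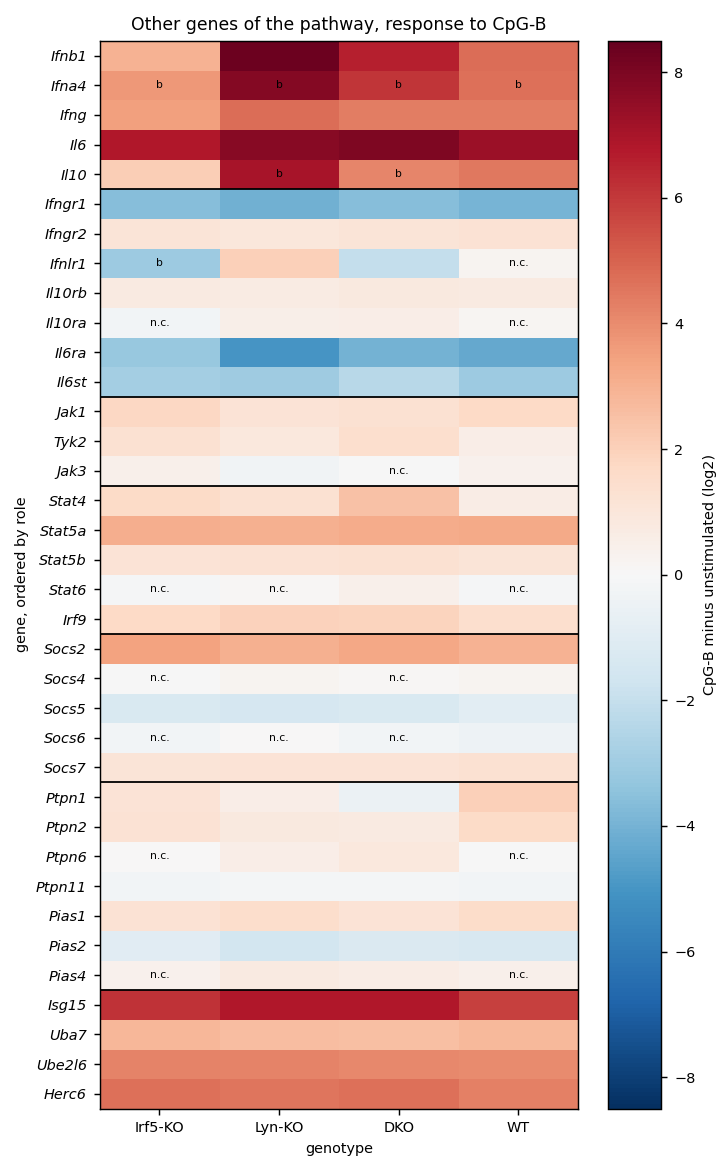
Change with CpG-B (CpG-B minus unstimulated, log2, in colour) of the 36 other genes by genotype, ordered by role from ligands at the top to ISG15 conjugation at the bottom. Cells marked n.c. did not pass the test, and cells marked b have 1 group with no array well above background, so their size is only a bound. Ifnlr1 and Ptpn1 are among the genes whose direction differs between genotypes.

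Genes with the most similar profile over the 24 arrays were ranked by the root mean square distance of values centred on each gene's own mean (log2). Usp18 was nearest to Ifit1 (0.31), Isg15 (0.38) and Oas3 (0.39), and Socs1 to Ifi204 (0.21), Irgm1 (0.21) and Parp14 (0.25). Stat2 was nearest to Trim21 (0.11), Pttg1 (0.12) and Ifi35 (0.12). Stat3 was nearest to Ric1 (0.094), Jak2 to Rab9 (0.14), Socs3 to Stx11 (0.25) and Cish to Ccnd2 (0.27). Among the genes that fell, Ifnar1 was nearest to Exoc3 (0.085) and Ifnar2 to Trim24 (0.078). The distance is dominated by the change with CpG-B, and it also grows with that change, so distances of different genes are not comparable.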

How the data were processed

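RNA of 24 BMDC cultures, which the labels call biological triplicates, was labelled with Cy3 and hybridised singly to Agilent mouse arrays. The deposited scanner files hold processed signal intensity per spot, which Agilent Feature Extraction 10.7.3.1 had background-subtracted, per the file headers; the build they name is mm9. The authors' deposited series table holds log2 values (column medians -0.27 to 0.38) and was an alternative here. It was compared with the scanner values over the 13910 brightest probes, each centred on its own mean. There, 95% of the differences were under 0.0143. For these probes scale and direction are the same, and only the offset of each is unknown. Dimmer probes were not compared. Control spots and outlier flags (4351 spot values) were left out. Each log2 intensity had the array's 75th percentile subtracted. Kept probes (26640 of 55681) had to be well above background on 3 of 3 arrays in 1 group or more; 0 values were saturated. The brightest probe on average stood for a gene, which gave 20209 features.

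limma 3.58.1 (R 4.3.3) was fitted to all 24 arrays with 1 mean per group, and Benjamini-Hochberg adjustment ran over all features; every adjusted p in the text is from limma, 2-sided, and a call is one under 0.05. The code was tested on simulated data. The number of arrays limits the precision (median residual SD 0.134, log2). The 3 slides each hold 1 array of every group, and the replicate number is the slide, per the file headers. The text names the 9 genes, the targeted genes, 38 pathway genes by role, markers of cell types and the 3 nearest profiles of a gene. The 9 genes and these lists were chosen with earlier results of these data known. Alternatives covered scaling, background correction, filters, single probes, a replicate block, fits of fewer groups, the deposited table and each array left out. Protein sequences and a Usp18 promoter were not used here, and 1 pathway gene and 1 B cell marker are not reported here.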

Additional observations from a re-analysis of the deposited data

Results flagged for a closer look

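The change with CpG-B differed from that in WT, by the test of the difference itself, for 8 pairs of gene and genotype. In Irf5-KO these were Jak2, whose change was larger by 0.55 (log2, SE 0.13, adjusted p = 0.00616; 0.65, 0.52 and 0.46 on the 3 slides), and Stat2, larger by 0.47 (adjusted p = 0.0192). In Lyn-KO these were Stat3, with a difference of -0.34 (adjusted p = 0.0123; -0.38, -0.47 and -0.16), and Usp18, with 1.22 (adjusted p = 0.0264; 2.05, 1.17 and 0.46). In DKO these were Jak2, with 0.47 (SE 0.13, adjusted p = 0.00846), Stat3, with -0.26 (SE 0.083, adjusted p = 0.024), Usp18, with 1.31 (SE 0.34, adjusted p = 0.00646), and Cish, with 0.85 (SE 0.26, adjusted p = 0.0199). All adjusted p are from limma. For Usp18 the genotypes differed in unstimulated cells and not, past the threshold, with CpG-B, and for Jak2 and Stat3 with CpG-B and not, past the threshold, in unstimulated cells. The 3 WT unstimulated and 3 WT CpG-B arrays enter all 8 values.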

How the results depend on the processing

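Of 2808 values of 162 results (9 genes in 18 comparisons) under the alternatives, 2729 kept their side of the threshold, 54 lost a call, 25 gained one, and 0 called values changed direction; values not called did change sign in places. The single-probe alternative counted a gene as called when any probe was, so the disagreement of the Ifnar1 probes described above is not in these numbers. All 9 genes stayed called for the change with CpG-B in each genotype whichever array was left out (9 to 9 genes); Jak2 in Lyn-KO lost its call after normexp with quantile normalization (0.12). The 4 CpG-B means stayed on one side of the unstimulated means for 9 genes under quantile normalization, with or without normexp. Counts of the 9 genes called moved by over 1.5 times as follows. In unstimulated cells, Irf5-KO against WT gave 1 with a trended robust prior (0 in the report), and a fit of the compared groups alone gave 0 in Lyn-KO against WT (3) and 0 in DKO against WT (1). With CpG-B, normexp with quantile normalization gave 1 in Irf5-KO against WT (2) and 3 in DKO against WT (5), no filter and a fit of fewer groups gave 1 each in Lyn-KO against WT (2), and a fit of fewer groups gave 2 in DKO against Lyn-KO (4). For the difference of the response from WT, Irf5-KO had 1 after normexp with quantile normalization, with no filter or with fewer groups (2), Lyn-KO 0 with no filter and 1 with fewer groups (2), and DKO 2 with fewer groups (4). Fewer groups leave fewer arrays for the spread, and no filter adds features to the adjustment. Leaving out 1 array gave, unstimulated, 0 to 2 genes in Irf5-KO, 1 to 3 in Lyn-KO and 1 to 2 in DKO against WT. With CpG-B it gave 2 to 3 in Irf5-KO, 1 to 2 in Lyn-KO and 3 to 6 in DKO against WT, 2 to 3 in DKO against Irf5-KO and 3 to 4 in DKO against Lyn-KO. For the response it gave 1 to 3 in Irf5-KO, 1 to 3 in Lyn-KO and 3 to 5 in DKO. Unstimulated DKO against either single knockout and the difference of Lyn effects stayed at 0 to 0. Other causes were not tested. Same-numbered arrays deviated together only weakly (median r 0.055, -0.084 to 0.29 over 84 pairs, where differently numbered arrays had a median of -0.030 over 168). With the replicate number as a block, the smaller Jak2 response of Lyn-KO against WT passed (-0.35, adjusted p = 0.0276, limma). It changed no other call among the 9 genes. Each probe of the 9 genes was well above background on all arrays. Sizes could still move with the processing: the rise of Cish in Lyn-KO ran from 3.42 to 4.50 over the alternatives (4.31 in the report).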
